A study of Homo sapiens and Mus musculus with 4 samples.

Results

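PAX5, EBF1, BCL6, BACH2, POU2AF1, POU2F2, IRF4, PRDM1 and XBP1 are the transcription factors and the coactivator that set and then end B-cell identity. These 9 human genes and the 9 mouse genes of the same symbol, 18 of the 60736 genes in the expression table, were taken from a list of names. All 18 had a row in the table. Bulk messenger RNA was sequenced in 4 established lymphocyte lines, 1 library each, and served the study as a reference for assigning single cells to a line. Jurkat is a human CD4 T-cell leukaemia line, TALL104 a human CD8 T-cell leukaemia line grown with interleukin-2, EL4 derives from a T-cell lymphoma of the mouse, and IVA12 is a B-lineage mouse hybridoma. The labels name no introduced gene or drug treatment in any line, and each line is 1 library of 1 established culture. With no replicates, no test was made, and every difference below is a difference between 2 libraries.

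Early in B-cell development EBF1 and PAX5 switch on the genes of the B-cell receptor and shut off those of other lineages. In the germinal centre BCL6 and BACH2 repress the plasma-cell programme, while POU2AF1 (also called OBF-1 or OCA-B) joins the octamer-binding factor POU2F2 (OCT2) at B-cell promoters. IRF4 and PRDM1 (BLIMP1) drive the exit to the plasma cell, in which XBP1 enlarges the secretory pathway. Several of these factors also act in T cells: BCL6 in follicular helper cells, PRDM1 and IRF4 in effector cells, and BACH2 in naive and memory cells.

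The FPKM, in which fragment numbers are divided by the length of the gene and the size of the library, stepped in whole reads, from which totals of 34783047 reads (Jurkat), 28345951 reads (TALL104), 32149319 reads (EL4) and 25286728 reads (IVA12) were recovered. The bracketed or stated intervals are exact 95% Poisson or binomial intervals of these reads and cover counting error only, not differences between cultures. Genes of the other species, which reads could reach because the reference combined both genomes, held 0.0379% to 0.175% of the FPKM of a library. A list of 13 T-lineage markers had all 13 at 1 FPKM or more in Jurkat, 12 each in TALL104 and EL4, and 4 in IVA12, and the respective summed levels were 1186, 1029, 1476 and 14.5 FPKM. In EL4 the marker Cd7 was listed at 0. In IVA12 the list did not vanish, since Cd2 (9.99 FPKM), Cd28 (1.23 FPKM), Cd3g (1.15 FPKM) and Tcf7 (1.14 FPKM) were above 1 FPKM. Of 6 myeloid markers (MPO, ELANE, CSF1R, CD14, CSF3R and ITGAM), the one above 1 FPKM in any library was ITGAM in TALL104, at 1.47 FPKM. Human and mouse FPKM rest on different annotations and are set side by side without a ratio.

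An XBP1 gene value sums 2 messages, because the enzyme IRE1, encoded by ERN1, removes 26 bases from the XBP1 transcript under endoplasmic reticulum stress and only the shortened message encodes the strong activator. The stretch is shown because its removal is what sets the activity of the factor and a gene-level FPKM does not separate the 2 forms. It lies within an annotated exon at chr22:29192116-29192141 on the minus strand of hg19 and at chr11:5524278-5524303 on the plus strand of mm10, and is given in capitals with 20 bases on each side. The position is that of the gap in the annotated human spliced form. A G opens the stretch and another G follows it, so removing 26 bases from a base later leaves the same message. The exact cut sites of the enzyme therefore cannot be read from this position.
XBP1, human: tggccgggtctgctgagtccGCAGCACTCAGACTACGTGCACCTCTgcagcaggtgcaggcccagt
Xbp1, mouse: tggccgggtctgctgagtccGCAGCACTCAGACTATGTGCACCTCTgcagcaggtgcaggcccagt
The human and mouse stretches were identical at 25 of 26 bases, and the lines as printed at 65 of 66.

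**Figure D1:**
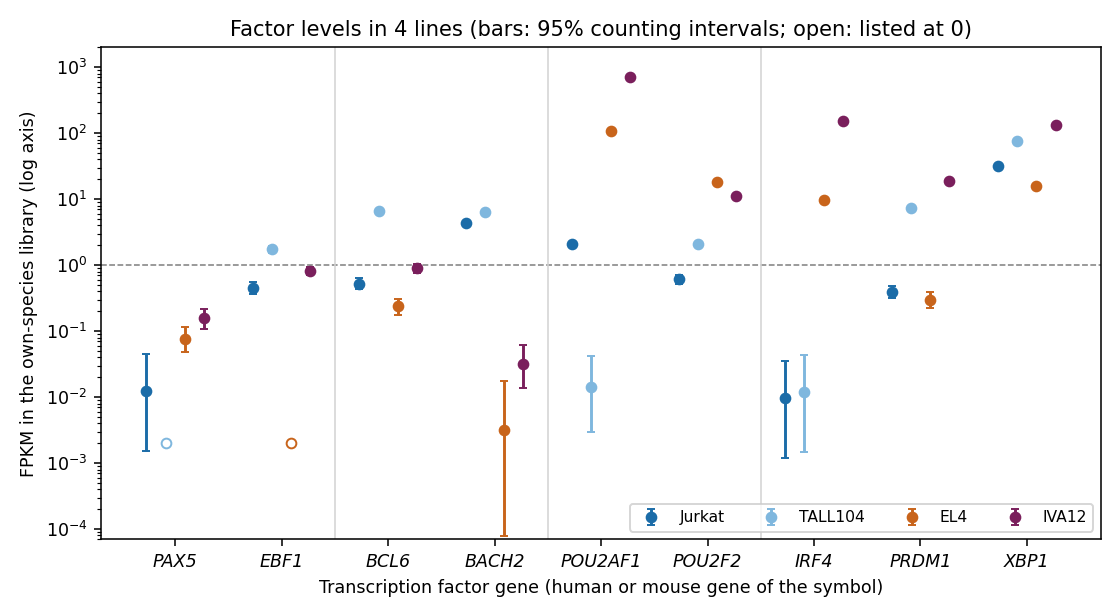
FPKM on a log axis of each factor in the 2 libraries of its own species, with bars for 95% counting intervals, open circles for genes listed at 0 and a dashed line at 1 FPKM. PAX5 stayed below 0.2 FPKM in every library, whereas XBP1 lay between 15.9 and 132.5 FPKM in all 4.

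At 1 FPKM or more, 3 of the 9 factors were detected in Jurkat (33.2% of all human genes), 6 in TALL104 (33.1%), 4 of the 9 mouse factors in EL4 (34.3% of all mouse genes) and 5 in IVA12 (35.0%). XBP1 led in both human lines, with 31.3 FPKM in Jurkat (rank 1518 of 32738 genes) and 76.6 FPKM in TALL104 (rank 361). Pou2af1 led in both mouse lines, with 107 FPKM in EL4 (rank 445 of 27998 genes) and 699.9 FPKM in IVA12 (rank 44). In Jurkat the order below XBP1 was BACH2, POU2AF1, POU2F2, BCL6, EBF1 and PRDM1, and among the last 4 the intervals of neighbours overlapped. In TALL104 PRDM1, BCL6 and BACH2 followed XBP1, again with overlapping intervals between neighbours, then POU2F2 and EBF1, whose intervals also overlapped. In EL4 Pou2f2, Xbp1 and Irf4 followed Pou2af1 with separate intervals, and Prdm1 and Bcl6 overlapped at lower levels. In IVA12 the order was Pou2af1, Irf4, Xbp1, Prdm1 and Pou2f2, all with separate intervals, before Bcl6 and Ebf1, which overlapped.

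Ratios were taken on FPKM + 1, so that genes near 0 do not give large folds, and a factor was counted as different above 1.5-fold. On this scale 6 of the 9 factors differed between Jurkat and TALL104, against 25.3% of all human genes. Of these, 1 was higher in Jurkat (13.8% of all genes) and 5 were higher in TALL104 (11.4%). Between EL4 and IVA12 7 of the 9 differed, against 21.0% of all mouse genes, with 1 higher in EL4 (9.75%) and 6 higher in IVA12 (11.2%). The median log2 ratio over the 9 factors was -0.91 for Jurkat over TALL104 and -0.86 for EL4 over IVA12, where a negative value means higher in TALL104 or IVA12. The mouse value depends on the scale, at -2.71 with a pseudocount of 0.1 and -2.98 over the 5 factors with at least 1 FPKM in either line, where the human values were -1.29 and -0.94. Over all genes the median was 0 in both pairs, since many genes are at or near 0 in both lines. Over genes at 1 FPKM or more in both lines it was 0.10 for the human and -0.02 for the mouse lines. In bulk RNA, fewer cells expressing a gene and less RNA of it per cell cannot be told apart.

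**Figure D2:**
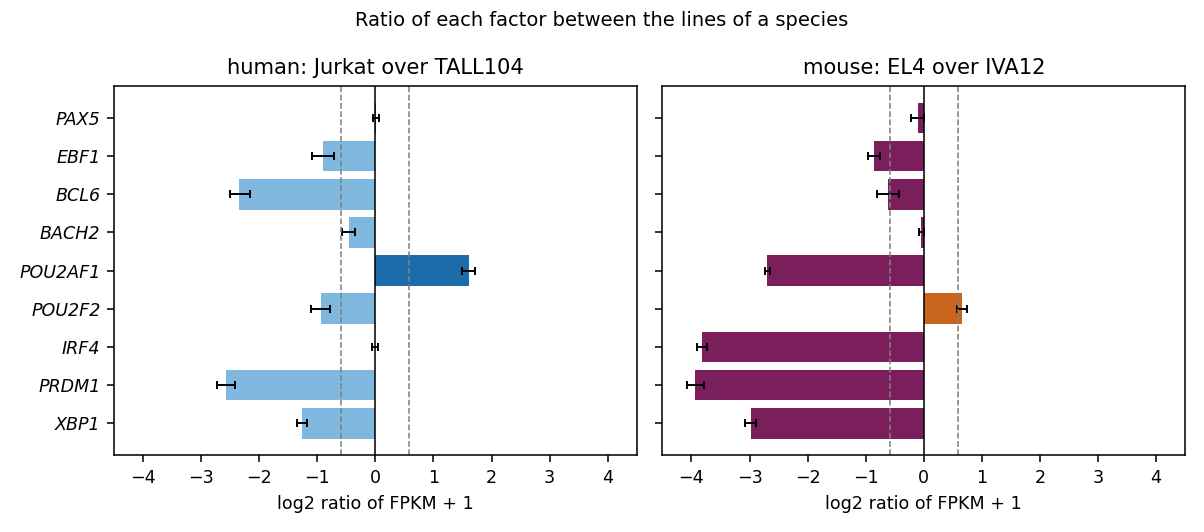
Log2 ratio of FPKM + 1 of each factor for Jurkat over TALL104 (left) and EL4 over IVA12 (right), with dashed lines at 1.5-fold. Error bars join opposite ends of the 95% counting intervals of the 2 levels and are wider than a 95% interval. POU2AF1 at 1.61 in the human pair and Pou2f2 at 0.66 in the mouse pair were the bars past the line on the side of Jurkat or EL4.

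The B-cell identity factors were low everywhere. PAX5 (ENSG00000196092, hg19 chromosome 9, 36833266 to 37034265), the factor that commits progenitors to the B lineage, had 0.0124 FPKM in Jurkat from 2 recovered reads, a count that may lack a common factor, and was listed at 0 in TALL104. Mouse Pax5 (ENSMUSG00000014030, mm10 chromosome 4, 44524757 to 44710487) had 0.0773 FPKM (22 reads) in EL4 and 0.156 FPKM (35 reads) in IVA12. Thus the B-lineage line had little Pax5, with an IVA12 over EL4 FPKM ratio of 2.02 (interval 1.15 to 3.62) that fell within 1.5-fold on the FPKM + 1 scale. EBF1 (ENSG00000164330, chromosome 5, 158122928 to 158526924), the pioneer factor upstream of PAX5, had 0.457 FPKM in Jurkat (interval 0.371 to 0.557) and 1.73 FPKM in TALL104 (1.54 to 1.94). It was 3.78-fold higher in the CD8 line (interval 3.0 to 4.80), with 302 reads against 98. Mouse Ebf1 (ENSMUSG00000057098, chromosome 11, 44617317 to 45008091) had no read in EL4 but 202 reads in IVA12 (0.819 FPKM). The IVA12 level was 85.6-fold a floor of 3 reads in EL4, without the counting error of the IVA12 reads. Even so Ebf1 in IVA12 stayed under 1 FPKM.

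Genes that PAX5 and EBF1 are known to activate were mixed in the human pair, whereas in the mouse pair most of those past 1.5-fold were higher in IVA12. Of 14 such human genes, 1 was higher in Jurkat (13.8% of all human genes), 2 were higher in TALL104 (11.4%) and 11 did not pass 1.5-fold. The median log2 ratio was 0.00. The complement receptor gene CR2 was at 2.5 FPKM in the Jurkat library and at 0 in that of TALL104. Its Jurkat level was 115-fold a floor of 3 reads in TALL104. The Src-family kinase gene BLK had 3.34 FPKM in Jurkat against 6.70 FPKM in TALL104. CD79B, a signalling chain of the B-cell receptor, had 0.0415 FPKM (3 reads) in Jurkat and 4.80 FPKM in TALL104. Its partner chain CD79A, picked out after its values were seen, had 16.5 FPKM in Jurkat against 24.6 FPKM in TALL104, beside PAX5 at or near 0. In the mouse pair 13 of the 14 genes were matched, of which 1 was higher in EL4, 4 were higher in IVA12 and 8 did not pass. Those higher in IVA12 were Cd79b (0.326 FPKM in EL4 against 163 FPKM in IVA12), the CD20 gene Ms4a1 (0 and 46.5 FPKM), the adaptor gene Blnk (0.0312 and 39.6 FPKM) and Fcrla (0.0357 and 17.4 FPKM). Cd22, an inhibitory receptor gene, was higher in EL4, at 1.75 against 0.119 FPKM. Cd79a, picked out after its values were seen, had 0.149 FPKM in EL4 and 0.0543 in IVA12, so that IVA12 had a high level of Cd79b beside a level of Cd79a under 1 FPKM.

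BCL6 passed 1 FPKM in TALL104 and in none of the other 3 libraries, and BACH2 was present in both human lines and near 0 in both mouse lines. BCL6 (ENSG00000113916, chromosome 3, 187439165 to 187463513), a zinc-finger repressor, had 0.523 FPKM in Jurkat (108 reads) and 6.71 FPKM in TALL104 (1130 reads), 12.8-fold higher in TALL104 (interval 10.5 to 15.8). Mouse Bcl6 (ENSMUSG00000022508, chromosome 16, 23965052 to 23988852) had 0.237 FPKM in EL4 (51 reads) and 0.903 FPKM in IVA12 (153 reads). Its FPKM ratio was 3.81 (interval 2.76 to 5.34), but the log2 ratio of -0.62 on FPKM + 1 had joined bounds of -0.81 to -0.43 that reached inside 1.5-fold. BACH2 (ENSG00000112182, chromosome 6, 90636247 to 91006562), which partners small MAF proteins, had 4.33 FPKM in Jurkat (interval 4.11 to 4.55) and 6.34 FPKM in TALL104 (6.04 to 6.64). It was thus present in both human lines, and its log2 ratio of -0.46 was within 1.5-fold. Mouse Bach2 (ENSMUSG00000040270, chromosome 4, 32238804 to 32586108) had 1 read in EL4 (0.00313 FPKM) and 8 reads in IVA12 (0.0318 FPKM), near 0 in both.

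BCL6 can bind its own promoter and STAT factors bind a similar palindrome, so the sequence of the promoter is shown for the gene that differed 12.8-fold in the human pair. RefSeq promoters (GRCh38.p14, 250 bases before to 50 after a start) were matched for 8 of the 9 human factors, with 11 promoters, POU2AF1 being the factor not matched. The palindrome TTCNNNGAA, searched on both strands, was in 1 of these 11 promoters, that of BCL6, with 4 matches that are in capitals below, and in 7.66% of all 35116 promoters. The window is chr3:187745419-187745718 of GRCh38.p14 on the minus strand.
BCL6 promoter: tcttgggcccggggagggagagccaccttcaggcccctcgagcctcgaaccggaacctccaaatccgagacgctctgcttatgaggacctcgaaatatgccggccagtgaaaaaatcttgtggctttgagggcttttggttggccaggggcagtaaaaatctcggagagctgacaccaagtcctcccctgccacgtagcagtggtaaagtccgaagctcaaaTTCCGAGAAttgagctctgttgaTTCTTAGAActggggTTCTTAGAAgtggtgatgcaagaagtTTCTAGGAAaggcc
None of the 11 promoters held the octamer ATGCAAAT (1.77% of all promoters), the interferon response core GAAANNGAA (8.11%) or the EBF palindrome CCCNNGGG (19.1%), each searched on both strands. These matches describe letters and not binding, and they were read on another build than that of the expression table.

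Of 7 germinal-centre genes, 1 was higher in Jurkat (13.8% of all human genes) and 3 in TALL104 (11.4%), with a median log2 ratio of -0.08. The LIM-domain gene LMO2 had 0.00925 FPKM (1 read) in Jurkat and 19.5 FPKM in TALL104, S1PR2 had 1.57 and 5.08 FPKM, and MYBL1 had 2.28 and 4.83 FPKM. GCSAM went the other way, with 2.38 FPKM in Jurkat against 0.214 FPKM in TALL104. MEF2B (0.0317 and 0.0907 FPKM) and ELL3 (0.150 and 0.0490 FPKM) were low in both, and RGS13 was listed at 0 in both. In the mouse pair 2 of the 7 were higher in EL4 (9.75% of all mouse genes) and 1 was higher in IVA12 (11.2%). The higher genes in EL4 were Rgs13, a regulator of G-protein signalling, at 40.5 FPKM against 0 in IVA12, and Gcsam at 3.10 against 0.0115 FPKM. The Rgs13 level in EL4 was 565-fold a floor of 3 reads in IVA12. Mef2b was higher in IVA12, at 0.855 against 0.0464 FPKM. S1pr2 (18 and 23.2 FPKM), Mybl1 (4.42 and 5.75 FPKM), Lmo2 (0.388 and 0.256 FPKM) and Ell3 (0.0142 and 0.253 FPKM) did not pass 1.5-fold. Hence Rgs13 and Gcsam were higher in the T-cell line than in IVA12, while Bcl6 was below 1 FPKM in both mouse lines.

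The octamer factors separated the lines in opposite ways. POU2AF1 (ENSG00000110777, chromosome 11, 111222980 to 111326355), the coactivator, had 2.09 FPKM in Jurkat (539 reads) and 0.0143 FPKM in TALL104 (3 reads). The ratio was 146 with an interval of 49.8 to 712, and POU2AF1 was the factor of the human 9 that was higher in Jurkat. Mouse Pou2af1 (ENSMUSG00000032053, chromosome 9, 51213708 to 51240080) was abundant in both lines, at 107 FPKM in EL4 (interval 105 to 109) and 699.9 FPKM in IVA12 (694 to 706), and 6.53-fold higher in IVA12 (6.38 to 6.68). POU2F2 (ENSG00000028277, chromosome 19, 42590262 to 42700737), its DNA-binding partner, showed the reverse pattern in the human pair, with 0.611 FPKM in Jurkat against 2.10 FPKM in TALL104, 3.43-fold higher in TALL104 (interval 2.90 to 4.08). Thus neither human line had both genes above 1 FPKM. Mouse Pou2f2 (ENSMUSG00000008496, chromosome 7, 25087344 to 25179726) had 18.2 FPKM in EL4 against 11.2 FPKM in IVA12. It was the mouse factor with a higher level in the T-cell line, 1.63-fold by FPKM (interval 1.55 to 1.71), and its log2 ratio of 0.66 had an interval of 0.57 to 0.75 that reached inside 1.5-fold.

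The plasma-cell factors were all higher in IVA12 in the mouse pair and, apart from IRF4, were higher in TALL104 in the human pair. IRF4 (ENSG00000137265, chromosome 6, 391739 to 411443), the interferon regulatory factor needed for plasma cells, had 2 reads in each human line, 0.00975 FPKM in Jurkat against 0.0120 FPKM in TALL104. Those levels were no higher than that of human IRF4 in the mouse library IVA12, 0.0201 FPKM from 3 reads, and human IRF4 was not detectable above background at this depth. Mouse Irf4 (ENSMUSG00000021356, chromosome 13, 30749226 to 30766976) had 9.73 FPKM in EL4 against 151 FPKM in IVA12 (rank 300), 15.5-fold higher in the B-lineage line (interval 14.7 to 16.4).

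PRDM1 (ENSG00000057657, chromosome 6, 106441338 to 106557814), the repressor that ends the B-cell programme, had 0.393 FPKM in Jurkat (87 reads) and 7.32 FPKM in TALL104 (1321 reads). At 18.6-fold (interval 15.0 to 23.4) and a log2 ratio of -2.58 it was the human factor with the largest difference by that log2 ratio. Mouse Prdm1 (ENSMUSG00000038151, chromosome 10, 44437177 to 44528501) had 0.300 FPKM in EL4 (53 reads) and 18.9 FPKM in IVA12 (2618 reads), 62.8-fold higher (interval 47.9 to 84.1). BCL6 and PRDM1, which repress one another in B cells, were therefore both higher in TALL104 than in Jurkat. In the mouse pair Prdm1 was higher in IVA12. Bcl6, at 0.237 FPKM in EL4 and 0.903 FPKM in IVA12, was below 1 FPKM in both, and its joined log2 bounds reached inside 1.5-fold. The span of human PRDM1 overlaps ATG5 on the opposite strand, and all of the human factors except IRF4 and XBP1 overlap a measured gene on the opposite strand, as do mouse Pax5, Ebf1, Bach2 and Pou2f2, whereas the strand setting of the read counting is not given in the sources used here.

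XBP1 (ENSG00000100219, chromosome 22, 29190543 to 29196585) had 31.3 FPKM in Jurkat (interval 30.3 to 32.4) and 76.6 FPKM in TALL104 (74.8 to 78.5), 2.45-fold higher in TALL104 (2.35 to 2.55). Mouse Xbp1 (ENSMUSG00000020484, chromosome 11, 5520659 to 5525893) reached 15.9 FPKM in EL4 (15.2 to 16.7) and 132.5 FPKM in IVA12 (130.0 to 135.0), 8.32-fold higher in IVA12 (7.90 to 8.77). It was the factor at 10 FPKM or more in all 4 own-species libraries. The CCACG part of the endoplasmic reticulum stress element, to which ATF6 and XBP1 bind, was in 5 of the 11 promoters of the human factors and in 38.1% of all promoters, on both strands. These were both promoters of XBP1 and those of BCL6, PAX5 and PRDM1. The XBP1 promoter with 3 matches, at chr22:28800520-28800819 of GRCh38.p14 on the minus strand, is printed with the matches in capitals because XBP1 is known to be induced through this element.
XBP1 promoter: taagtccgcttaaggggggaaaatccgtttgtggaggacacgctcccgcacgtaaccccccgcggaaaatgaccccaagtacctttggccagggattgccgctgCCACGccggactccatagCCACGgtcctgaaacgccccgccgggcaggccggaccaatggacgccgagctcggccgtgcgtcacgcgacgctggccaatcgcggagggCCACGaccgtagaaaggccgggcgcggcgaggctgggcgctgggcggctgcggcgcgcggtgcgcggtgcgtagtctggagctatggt

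In the mouse pair, the genes that mark plasma cells were higher in the same line as the plasma-cell factors. All 12 were higher in IVA12, with a median log2 ratio of -3.57, against 11.2% of all mouse genes. The joining chain gene Jchain had 0.148 FPKM in EL4 against 1289 FPKM in IVA12, and the chaperone gene Mzb1 had 0.172 and 499 FPKM. The syndecan gene Sdc1, a surface marker of plasma cells, had 0.00817 FPKM (1 read) and 60.2 FPKM. The elongation factor gene Ell2 had 0.0682 and 56.8 FPKM, Fkbp11 had 0.0851 (2 reads) and 28.8 FPKM, and Slamf7 had 0.00680 (1 read) and 24.7 FPKM. In the human pair 1 of the 12 was higher in Jurkat (13.8% of all human genes), 4 were higher in TALL104 (11.4%) and 7 did not pass 1.5-fold. The median was -0.13, or -1.75 over the 5 genes at 1 FPKM or more in either line. SLAMF7, a receptor also carried by cytotoxic lymphocytes, had 0.162 FPKM in Jurkat against 147 FPKM in TALL104. The transcription factor gene CREB3L2 had 5.47 and 20.9 FPKM, FKBP11 had 4.30 and 16.9 FPKM and JCHAIN had 0.0513 and 0.588 FPKM. JCHAIN, from 3 and 28 reads, had joined log2 bounds of -0.87 to -0.27 that reached inside 1.5-fold. Human JCHAIN also had 0.330 FPKM (14 reads) in the mouse library IVA12. MZB1 was higher in Jurkat, at 47.7 against 8.88 FPKM. So SLAMF7 and MZB1, both on this list, differed in opposite directions between the human lines.

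**Figure D3:**
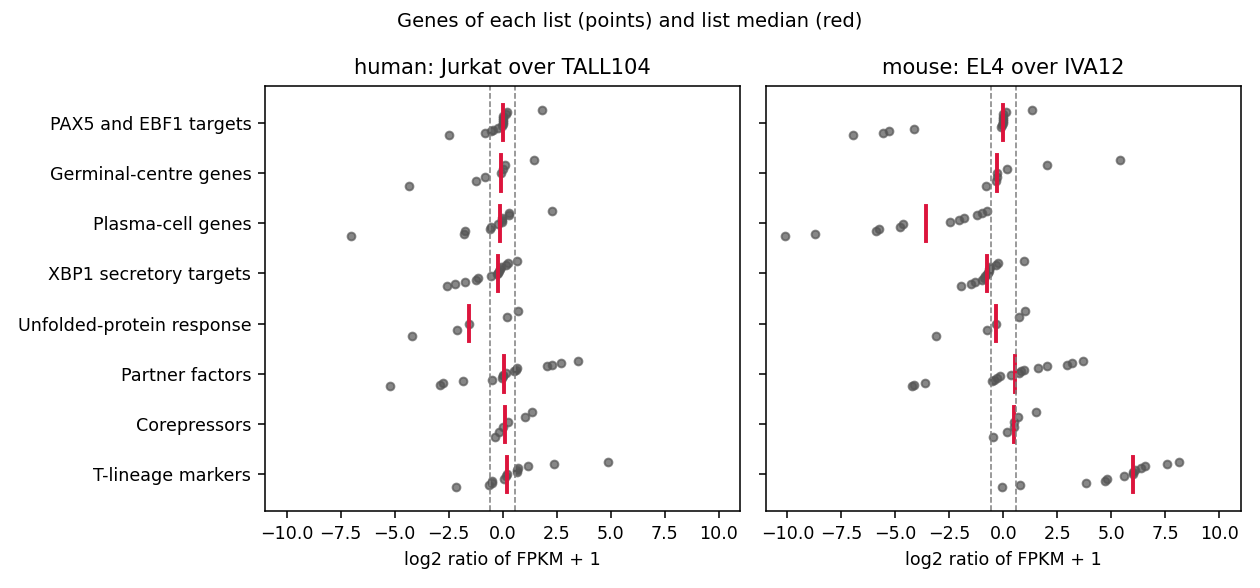
Log2 ratio of FPKM + 1 of the genes of 8 lists (grey points) with the list median (red bar) for Jurkat over TALL104 (left) and EL4 over IVA12 (right), dashed lines at 1.5-fold. In the mouse pair the plasma-cell median was -3.57 and the T-lineage median 5.97, while the human medians of those lists were -0.13 (-1.75 over genes at 1 FPKM or more in either line) and 0.20.

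Targets of XBP1 in the secretory pathway were measured at 1 FPKM or more in all 4 lines for all 14 genes of the list. Between EL4 and IVA12 11 were higher in IVA12 (11.2% of all mouse genes), 1 was higher in EL4 (9.75%) and 2 did not pass. The median log2 ratio was -0.74. The higher genes included Creld2 (39.1 FPKM in EL4 against 157 FPKM in IVA12), the ubiquitin ligase gene Syvn1 (10.6 and 31.6 FPKM), the disulphide isomerase gene Pdia4 (67.2 and 168 FPKM), Dnajb9 (5.89 and 12.8 FPKM) and Sdf2l1 (46.0 and 86.6 FPKM). Dnajc3, an inhibitor of stress kinases, was higher in EL4, at 26.4 against 13.2 FPKM. Between Jurkat and TALL104 5 were higher in TALL104 (11.4% of all human genes) and 1 was higher in Jurkat (13.8%), with 8 that did not pass and a median of -0.22. The 5 were the cochaperone genes DNAJB9 (4.35 FPKM in Jurkat against 30.9 FPKM in TALL104) and DNAJC3 (12.1 and 27.7 FPKM), CRELD2 (3.42 and 19.4 FPKM), HERPUD1 (7.17 and 26.5 FPKM) and SYVN1 (5.32 and 13.6 FPKM). SDF2L1 was higher in Jurkat, at 15.0 against 9.05 FPKM.

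The enzyme that processes the XBP1 message was itself higher where XBP1 was higher. ERN1 had 2.45 FPKM in Jurkat against 61.6 FPKM in TALL104, a ratio of 25.2 (interval 23.6 to 26.9), and mouse Ern1 had 0.936 FPKM in EL4 against 15.8 FPKM in IVA12, a ratio of 16.9 (14.8 to 19.3). The other genes of the unfolded-protein response split. EIF2AK3, which encodes the kinase PERK, had 5.5 and 18.1 FPKM in the human lines, and DDIT3, the CHOP gene, had 7.03 and 33.9 FPKM. ATF6 was higher in Jurkat, at 18.8 against 11.2 FPKM, and ATF4, with 172 and 151 FPKM, did not pass 1.5-fold. In the mouse pair Atf4 was higher in IVA12 (147 FPKM in EL4 against 250 FPKM in IVA12), Atf6 (44.1 and 21.6 FPKM) and Ddit3 (10.1 and 5.66 FPKM) were higher in EL4, and Eif2ak3 (13.1 and 17.0 FPKM) did not pass. ERN1 was thus the gene of these 5 that was higher in both TALL104 and IVA12. The median log2 ratio was -1.56 for the human and -0.35 for the mouse lines.

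Factors that work with, or against, the 9 were split between the lines. Of 16 partner factors, 6 were higher in Jurkat (13.8% of all human genes) and 4 in TALL104 (11.4%), with a median of 0.09. In the mouse pair 8 were higher in EL4 (9.75% of all mouse genes) and 3 in IVA12 (11.2%), with a median of 0.54. The inhibitors of E proteins stood apart in the human lines, where ID2 had 2.46 FPKM in Jurkat against 126 FPKM in TALL104 and ID3 had 36.9 and 2.34 FPKM. IKZF3, the Aiolos gene, had 2.02 and 21.3 FPKM, FOXO1 had 1.05 and 12.7 FPKM, RUNX1 had 36.1 and 6.60 FPKM, and BCL11A, at 5.52 FPKM in Jurkat, had no read in TALL104. Among the mouse libraries, Spi1, the PU.1 gene whose product binds with IRF4, had 0.0115 FPKM (1 read) in EL4 and 18 FPKM in IVA12. Mef2c had 0.00396 (2 reads) and 16.9 FPKM, and the E-protein gene Tcf4 had 0.00341 (3 reads) and 11.5 FPKM. Id2 (30.8 and 1.46 FPKM), Ikzf3 (19.3 and 1.62 FPKM) and the IRF4 partner Batf (10.8 and 0.331 FPKM) were higher in EL4. Id2 and Ikzf3 were thus higher in the line with less Irf4 and Prdm1, whereas ID2 and IKZF3 were higher in TALL104, which had more PRDM1.

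The corepressors through which BCL6 and PRDM1 act were present in all 4 lines. None of the 6 on the list was higher in TALL104 (11.4% of all human genes) or IVA12 (11.2% of all mouse genes). Of the 6, 2 were higher in Jurkat (13.8%) and 2 in EL4 (9.75%). HDAC1 (124 FPKM in Jurkat against 60.9 FPKM in TALL104) and HDAC2 (20.9 and 7.62 FPKM) were higher in Jurkat, while NCOR1 (20.7 and 26.3 FPKM), BCOR (15.1 and 16.9 FPKM) and TLE3 (7.68 and 6.36 FPKM) did not pass 1.5-fold. Hdac1 (71.3 FPKM in EL4 against 43.7 FPKM in IVA12) was higher in EL4, while Ncor1 (35.1 and 25.1 FPKM), Bcor (13.7 and 19.7 FPKM), Tle3 (8.98 and 6.20 FPKM) and Hdac2 (38.3 and 33.7 FPKM) did not pass. The medians over the 6 were 0.12 and 0.47. Among the genes named from these lists, FKBP11, SYVN1, S1PR2, MEF2B, ELL3, RUNX1, Mef2b, Ell3 and Tcf7 share part of their span with another measured gene on the same strand, and their values carry that uncertainty.

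For the factors at 10 FPKM or more in any library, the genes with the most similar levels across all 4 libraries were listed by the Euclidean distance of log2(FPKM + 1) among 15550 genes whose symbol is shared by both species. Nearest to POU2F2 were ABHD16A (distance 0.32), CXXC5 (0.43) and DAPP1 (0.61). Nearest to PRDM1 were CBR1 (0.63), DYNLT3 (0.64) and IRF9 (0.82), of which CBR1 had 0, 6.13, 0.101 and 15.8 FPKM in Jurkat, TALL104, EL4 and IVA12. XBP1 was followed by CYFIP2 (1.16), ABHD17B (1.32) and DEGS1 (1.40), and IRF4 by SLAMF9 (0.88), CTSL (1.22) and NEIL1 (1.37). SLAMF9 was listed at 0 in both human libraries and had 10.3 FPKM in EL4 against 81.9 FPKM in IVA12. POU2AF1 was followed at larger distances, by PSMA2 at 2.05 and RPS10 at 2.58. In Jurkat, TALL104, EL4 and IVA12, PSMA2 had 2.17, 1.38, 252 and 328 FPKM, and RPS10 had 3.65, 1.92, 275 and 252 FPKM. Why the human values of PSMA2 and RPS10 were so low was not tested. The distances rest on 4 libraries and mix levels from 2 annotations.

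**Figure D4:**
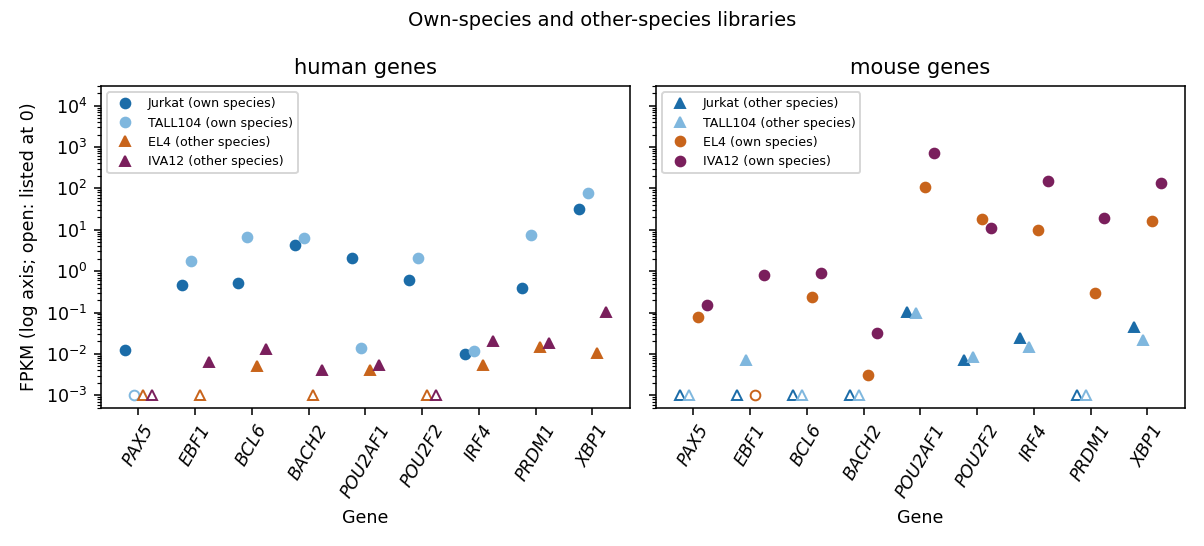
FPKM on a log axis of the human factors (left) and mouse factors (right) in libraries of their own species (circles) and of the other species (triangles), open symbols for genes listed at 0. The highest level in an other-species library was 0.104 FPKM, for XBP1 in IVA12.

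The rows of the other species gave the background of each factor. Human factors had at most 0.0147 FPKM in EL4 (PRDM1) and 0.104 FPKM in IVA12 (XBP1), and mouse factors at most 0.101 FPKM in Jurkat against 0.0962 FPKM in TALL104, both Pou2af1. PAX5 was at 0 in both mouse libraries, as was Pax5 in both human libraries. The 2 reads of PAX5 in Jurkat, the 2 of IRF4 in each human line and the 3 of POU2AF1 in TALL104 were within the 0 to 9 reads that single factors had in libraries of the other species. Pax5 in EL4 and IVA12, with 22 and 35 reads, was above them, and Bach2 in EL4 and IVA12, with 1 and 8 reads, was not. The 9 reads were those of Pou2af1 in Jurkat. Bach2 itself was at 0 in both human libraries, with upper bounds of 0.0107 FPKM in Jurkat and 0.0131 FPKM in TALL104. The Bach2 interval in IVA12, 0.0137 to 0.0627 FPKM, lay above both bounds, and that in EL4 did not.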

How the data were processed

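Messenger RNA was prepared with a modified stranded TruSeq kit and read as 101-base pairs. Reads were aligned with STAR 2.5.1b to the combined hg19 (Ensembl 82) and mm10 (Ensembl 84) reference of Cell Ranger 1.2.0 and counted with featureCounts 1.6.3. The authors deposited the values as FPKM. Gene lengths, strand setting and the handling of multiple alignments are not given in the sources used here.

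Libraries were grouped by cell line. Library totals and whole reads were recovered from the FPKM at a relative tolerance of 1e-12, and 100% of values above 0 came out whole. Where a recovered gene length is a fraction of the true one, reads are understated by that factor. Gene spans came from GENCODE release 44 mapped to hg19 and release M21 for mm10. Log2 ratios used FPKM + 1, and intervals were exact Poisson (levels) or Clopper-Pearson (FPKM ratios). Bounds of log2 ratios joined opposite ends of the 2 level intervals. With 1 library per line there was no test. The factors, lists and thresholds were chosen with earlier results of these data known. Named list genes were those past 1.5-fold, at most 6 per list and pair, and lists of 8 or fewer in full, with exceptions stated and a few genes not reported here. Alternatives were other pseudocounts, thresholds, filters and scalings. Python 3.11.15, NumPy 2.4.6, pandas 2.3.3, SciPy 1.17.1 and matplotlib 3.10.9 were used, and the calculation was tested on simulated data.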

Additional observations from a re-analysis of the deposited data

Results flagged for a closer look

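Reads on the factors of the other species, which no comparison between lines used, lay above 0 in every library. The 9 human factors summed to 7 reads in EL4 (4 of 9 at 0) and 19 reads in IVA12 (2 of 9 at 0). The 9 mouse factors summed to 20 reads in Jurkat (5 of 9 at 0) and 15 reads in TALL104 (4 of 9 at 0). All 4 sums exceeded the 3 reads that a count of 0 allows. The source of these reads was not tested.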

How the results depend on the processing

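Other pseudocounts, thresholds and filters cannot reverse the direction of a factor, so only the scalings could do so. Under the scalings no factor changed direction. Of the log2 ratios of single factors over all settings, 26 moved outside their joined bounds and 76 did not. The 76 include the 2-fold and 1 FPKM settings, which leave each ratio as it was, so they do not measure stability. Apart from XBP1 scaled by the median ratio (-1.37), every ratio that moved did so with another pseudocount. Of the 79 recomputed counts and medians, 52 kept their value within the limits set. The human factors past 1.5-fold numbered 6, or 7 with a pseudocount of 0.01 and 4 at 2-fold. The mouse factors numbered 7, or 9 with a pseudocount of 0.01, 5 with at least 1 FPKM in either line and 4 at 2-fold (0 higher in EL4, 4 in IVA12). Detection at 0.1 FPKM gave 7 factors in Jurkat and 8 in IVA12, and at 5 FPKM 1 in Jurkat.

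With a pseudocount of 0.1 the human medians moved to -1.29 for the factors, -0.53 for germinal-centre, -0.34 for plasma-cell, -1.70 for unfolded-protein response and 0.42 for partner genes. The mouse medians moved to -2.71 for the factors, -0.38 for PAX5 and EBF1 targets, -6.16 for plasma-cell, 0.73 for partner and 7.75 for T-lineage genes. With at least 1 FPKM in either line, which keeps fewer genes, the human medians were -0.54 for PAX5 and EBF1 targets, -1.04 for germinal-centre, -1.75 for plasma-cell, 0.35 for partner and -1.25 for myeloid genes. The mouse medians were then -2.98 for the factors, -5.30 for PAX5 and EBF1 targets, 0.85 for germinal-centre genes (a change of sign from -0.30), -4.67 for plasma-cell and 0.73 for partner genes. Scaling by the median ratio, a log2 shift of 0.11 in the human pair, gave -0.33 for XBP1 targets, 0.020 for corepressors and 0.086 for T-lineage genes. Where neither the pseudocount nor the filter sets the change, the cause was not tested.

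No paired analysis was possible because each line has 1 library and the labels give no replicate numbers. For the same reason no library was left out. Intervals cover counting error only. Log2 ratios of factors low in 1 line depend on the pseudocount: at 0.1 and 0.01, POU2AF1 went from 1.61 to 4.26 and 6.43, Ebf1 from -0.86 to -3.20 and -6.37, and Prdm1 from -3.93 to -5.57 and -5.93.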
